A study of Mus musculus with 4 samples.

Results

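Radial spoke, central pair and ruler genes of motile cilia were followed in testes of mice at postnatal day 14. The genes are Rsph1, Rsph4a, Rsph9, Spag6l, Spag16, Spag17, Hydin, Drc1, Ccdc39 and Ccdc40. They were taken by exact symbol as genes of these axonemal structures, with earlier results of these data known, and make up 10 of the 55401 rows in each library's table. Poly(A) RNA was sequenced from 2 Kctd19-/- testes (ko) and 2 Kctd19+/- testes (het), all from C57BL/6J mice with no treatment. The het animals also carry 1 mutant allele, and no wild-type group enters the comparison. Neither the deleted part of Kctd19 nor the number of founder lines is stated in the labels. Levels are in FPKM, reads per kilobase of exon relative to the depth of the library, so they can be compared between genes.

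The axoneme of a sperm tail or motile cilium is a ring of doublet microtubules around a central pair of single microtubules. Radial spokes reach from the doublets to the central apparatus and relay signals to the dynein arms, nexin links hold neighbouring doublets together and regulate the dyneins, and a coiled-coil ruler sets the repeat at which spokes and inner arms attach. In the testis the flagellum is built after meiosis, while many of its transcripts already accumulate in pachytene spermatocytes. At postnatal day 14 the first wave of spermatogenesis has reached meiotic prophase, before any spermatid forms.

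Assigned reads, recovered from the steps of the FPKM values, numbered 12155078 to 19430363 per library. Kctd19 itself stood at 12.8 and 15.6 FPKM in ko and at 29.7 and 18.2 FPKM in het, so its RNA remained in both ko libraries. The labelled tissue matched its markers, with all 7 listed Sertoli genes and all 8 listed leptotene to zygotene genes at a mean of at least 1 FPKM. The library labelled ko replicate 1 stood apart in late spermatid transcripts, whose 9 listed markers summed to 44.5 FPKM there, to 5.15 FPKM in ko replicate 2, and to 6.76 and 5.44 FPKM in het. In whole testis RNA, fewer cells of a type and less RNA per cell cannot be told apart.

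The 10 genes spanned a wide range of levels, with Rsph1 far above the others and Rsph4a near the limit of detection. Mean levels over the 4 libraries ran from 93.1 FPKM for Rsph1 through 8.69 FPKM for Ccdc39 and 3.71 FPKM for Rsph9 to 0.105 FPKM for Rsph4a. Rsph1, Ccdc39 and Rsph9 each lay above the next gene in every library. Between them and Rsph4a, the ranges of neighbours in the order Spag17, Spag6l, Ccdc40, Drc1, Spag16 and Hydin overlapped. Compared within each library, Spag17 lay above Spag6l, Ccdc40 above Drc1, and Drc1 above Spag16, though Drc1 rested on 13 to 53 reads. Ccdc40 lay above Spag6l in the ko libraries and below it in the het libraries. Spag16 lay above Hydin in all libraries but het replicate 2, so these neighbours cannot be ranked. Hydin lay above Rsph4a in each library.

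**Figure D1:**
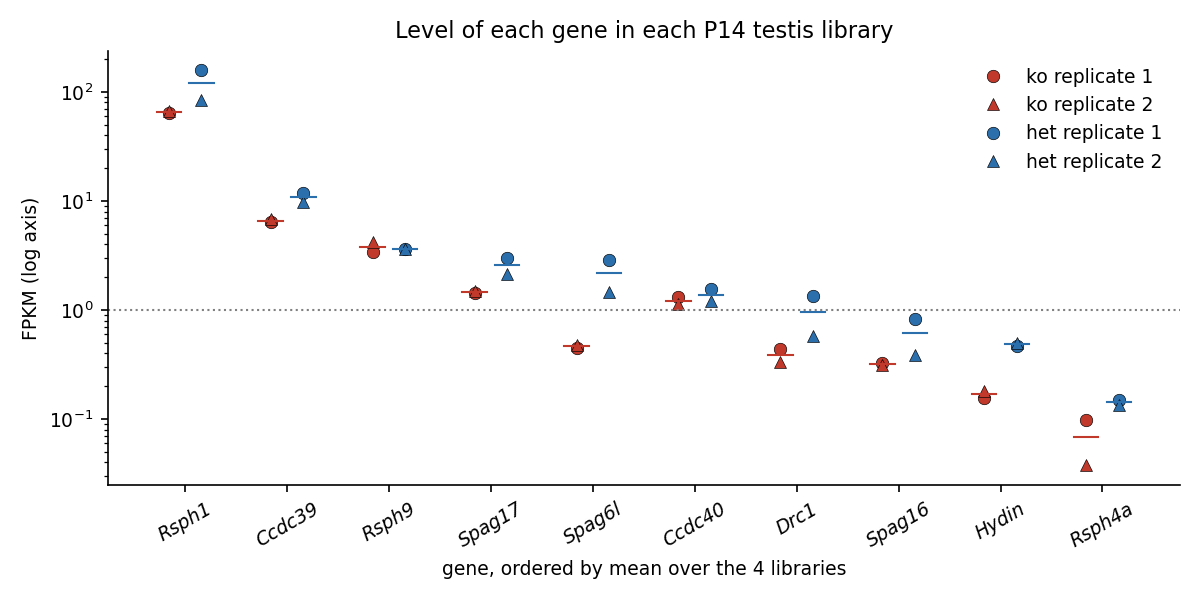
FPKM of the 10 genes (log axis) in each library, ko left of het, with circles for replicate 1, triangles for replicate 2, bars for group means and a dotted line at 1 FPKM, the minimum mean for the limma test. Both ko libraries lie below both het libraries for all genes but Rsph9 and Ccdc40.

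Most of the 10 genes were lower in ko, without overlap between the groups. The ko and het values did not overlap for 8 of 10 genes, all lower in ko, and overlapped for Rsph9 and Ccdc40. The 8 include Rsph4a, whose few reads allow no statement. Of the 9 genes with a mean of at least 10 reads, 7 were lower in both ko libraries, and of all genes with that mean 19.3% were lower in both ko libraries in this way, and 22.1% were higher. The median difference over the 10 genes was -0.41 in log2(FPKM + 1), ko minus het, beside 0.01 over the 17905 genes averaging 1 FPKM or more. This scale understates the change of low genes, and with a pseudocount of 0.1 FPKM the median was -0.72.

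Only 6 of the 10 genes reached the mean of 1 FPKM required for limma on log2(FPKM + 1), and Spag6l did so through its het libraries alone. Limma called 0 of these 6 at a Benjamini-Hochberg adjusted p under 0.05, where 0.0112% of all tested genes were called lower and 0.207% higher. At an unadjusted p under 0.05, 4 of the 6 were lower, against 4.41% of all tested genes. In a fit added after the data were seen, limma voom on whole reads could test 9 of the 10 (a mean of at least 10 reads) and called 4 lower, namely Spag6l, Hydin, Spag17 and Ccdc39, and 0 higher, where 0.721% of all genes were called lower and 0.807% higher. The planned voom fit, limited to the 6 genes of the limma test, called 2, Spag6l and Ccdc39. Over all genes it called 108 lower. With the read minimum, the number of lower calls fell without ko replicate 1 or het replicate 1. It rose without ko replicate 2 or het replicate 2. The number over all genes moved in the same direction each time, so these counts do not set the 9 genes apart. Voom called Spag6l and Ccdc39 whichever library was left out, while the calls of Spag17 and Hydin were lost without single libraries.

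Among spoke head proteins, Rsph1 was the most abundant of the set. Rsph1, also called meichroacidin, is known for its abundance in male meiotic germ cells. It stood at 64.1 and 67.3 FPKM in ko and at 157 and 83.8 FPKM in het. The ko libraries lay close together and below both het libraries, while het replicate 1 stood at 1.88 times het replicate 2. The mean was 65.7 ± 2.23 FPKM in ko and 120.5 ± 52.0 FPKM in het (SD, n = 2 each), with a log2 fold change of -0.80 (SE 0.30, limma, Benjamini-Hochberg adjusted p = 0.536). Voom on whole reads gave -0.81 (SE 0.20, Benjamini-Hochberg adjusted p = 0.0769). Without het replicate 1 the limma value was -0.35.

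Rsph9, another spoke head protein, had overlapping groups. It stood at 3.37 and 4.198 FPKM in ko and at 3.62 and 3.65 FPKM in het, and the ko values lay on both sides of the het values. Its log2 fold change was 0.04 (SE 0.13, limma, Benjamini-Hochberg adjusted p = 0.945).

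Rsph4a, a spoke head protein best known from cilia of airway and ependyma, rested on very few reads. It had 7 and 2 reads in the ko libraries and 8 and 6 reads in the het libraries, or 0.0987 and 0.0376 FPKM in ko and 0.150 and 0.135 FPKM in het. Summed per group, 9 reads in ko and 14 in het gave a ratio of 0.507 after scaling to depth, with an exact 95% interval of 0.193 to 1.26 that covers counting error only. A difference was not detectable at this depth. Its testis-enriched paralog Rsph6a was also low, at 0.165 and 0.0275 FPKM in ko and 0.356 and 0.165 FPKM in het.

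Of the central apparatus genes, Spag6l showed the largest fold difference of the 10. Spag6l, the mouse counterpart of the algal central pair protein PF16, is needed for sperm motility. It stood at 0.452 and 0.482 FPKM in ko (40 and 32 reads) and at 2.89 and 1.46 FPKM in het (193 and 81 reads). Both ko libraries were well below het replicate 2, the lower of the het libraries, which stood at 3.13 times the ko mean. The mean was 0.467 ± 0.0213 FPKM in ko and 2.18 ± 1.01 FPKM in het (SD, n = 2 each), a 4.67-fold difference. The log2 fold change was -1.08 in limma (SE 0.28, Benjamini-Hochberg adjusted p = 0.427) and -2.17 in voom (SE 0.38, Benjamini-Hochberg adjusted p = 0.0112). Voom gave -2.12 without ko replicate 1 and -1.64 without het replicate 1, and called the gene in both.

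Spag6, the copy of Spag6l on chromosome 2, had overlapping groups. Spag6 stood at 0.698 and 0.546 FPKM in ko and at 0.443 and 0.558 FPKM in het. Of the 4600 distinct stretches of 50 bases in Spag6l transcripts, 18 also occur in Spag6 (GENCODE M21), or 0.391%.

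Hydin, a very large protein of a central pair projection whose loss causes hydrocephalus in mice, separated the groups with little spread within either. It stood at 0.157 and 0.179 FPKM in ko (55 and 47 reads) and at 0.470 and 0.502 FPKM in het (124 and 110 reads). The het libraries differed little here, with het replicate 2 slightly above het replicate 1, unlike for Rsph1 and Spag6l. The mean was 0.168 ± 0.0155 FPKM in ko and 0.486 ± 0.0227 FPKM in het (SD, n = 2 each), a 2.89-fold difference. Voom gave a log2 fold change of -1.54 (SE 0.25, Benjamini-Hochberg adjusted p = 0.00677), and its mean level was under the limit for the limma test. Without ko replicate 1, which left 1 ko library, voom gave -1.43 and the gene was no longer called (Benjamini-Hochberg adjusted p = 0.062).

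Hydin lies on the same chromosome as the targeted gene. The end of Kctd19 and the start of Hydin on chromosome 8 are 4.85 megabases apart in GRCm38. Of the 81 genes between them with a mean of at least 10 reads, 13 were lower and 17 higher in both ko libraries, against 19.3% and 22.1% of all such genes. Of the 80 that limma tested, 6 had an unadjusted p under 0.05, and 2 of these were lower in ko. Of all genes that limma tested, 4.41% were lower at that p. The median log2 fold change of the 80 was 0.016. Limma called 1 of the 80, higher in ko, where 0.207% of all tested genes were called higher. This was the immunoproteasome gene Psmb10, named here after its values were seen. It stood at 18.4 and 17.7 FPKM in ko and at 6.93 and 6.85 FPKM in het. The part of the linked locus in the Hydin difference was not tested.

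Spag17, a protein of another central pair projection, differed less. It stood at 1.43 and 1.503 FPKM in ko and at 2.99 and 2.13 FPKM in het. The groups did not overlap, and het replicate 1 was again the highest library. The log2 fold change was -0.52 in limma (SE 0.18, Benjamini-Hochberg adjusted p = 0.520) and -0.80 in voom (SE 0.18, Benjamini-Hochberg adjusted p = 0.0493). The planned voom fit gave an adjusted p of 0.0503 (limma voom, Benjamini-Hochberg), which is not a call. With the read minimum, voom no longer called it without het replicate 1, where the log2 fold change was -0.54, or without ko replicate 1, where it was -0.76. On the opposite strand Wdr3 overlaps 9.66% of its exon bases. Wdr3 stood at 14.04 and 14.15 FPKM in ko and at 14.2 and 14.3 FPKM in het. The antisense gene Spag17os overlaps 6.08%, and stood at 0.0583 and 0.0933 FPKM in ko and at 0.4955 and 0.354 FPKM in het, below in both ko libraries as for Spag17. The sources used here give no strand setting for the counting, and reads in the overlaps cannot be told apart.

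Spag16, which bridges the central microtubules, separated the groups only narrowly. It stood at 0.327 and 0.314 FPKM in ko (43 and 31 reads) and at 0.828 and 0.389 FPKM in het (82 and 32 reads). Het replicate 1 stood at 2.13 times het replicate 2, which was close to the ko libraries. Voom gave a log2 fold change of -0.86 (SE 0.38, Benjamini-Hochberg adjusted p = 0.437) and -0.28 without het replicate 1.

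Drc1, a scaffold of the nexin link, showed a similar arrangement. It stood at 0.441 and 0.332 FPKM in ko (23 and 13 reads) and at 1.35 and 0.583 FPKM in het (53 and 19 reads). Both ko values were below both het values, but het replicate 1 stood at 2.32 times het replicate 2. Voom gave a log2 fold change of -1.22 (SE 0.49, Benjamini-Hochberg adjusted p = 0.362) and -0.58 without het replicate 1.

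Ccdc39 and Ccdc40, the ruler genes, encode proteins that act together as a coiled-coil pair. Ccdc39 stood at 6.38 and 6.78 FPKM in ko and at 11.8 and 9.74 FPKM in het, with 735 or more reads in each library. Both ko libraries were below both het libraries, by more than either pair of replicates differed. The mean was 6.58 ± 0.278 FPKM in ko and 10.8 ± 1.49 FPKM in het (SD, n = 2 each). On the log2 scale the fold change was -0.63 in limma (SE 0.12, Benjamini-Hochberg adjusted p = 0.312) and -0.71 in voom (SE 0.12, Benjamini-Hochberg adjusted p = 0.00697). It was called by voom without each library in turn, with log2 fold changes of -0.57 to -0.85.

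Ccdc40 stood at 1.31 and 1.13 FPKM in ko and at 1.54 and 1.201 FPKM in het. The groups overlapped, as ko replicate 1 was above het replicate 2. The log2 fold change was -0.09 (SE 0.19, limma, Benjamini-Hochberg adjusted p = 0.902), and the difference between the changes of the 2 ruler genes was not tested. Exons of Ttc14 on the opposite strand overlap 16.9% of the exon bases of Ccdc39. Ttc14 stood at 18.3 and 17.9 FPKM in ko and at 20.4 and 21.8 FPKM in het, and its part in the Ccdc39 difference was not tested.

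**Figure D2:**
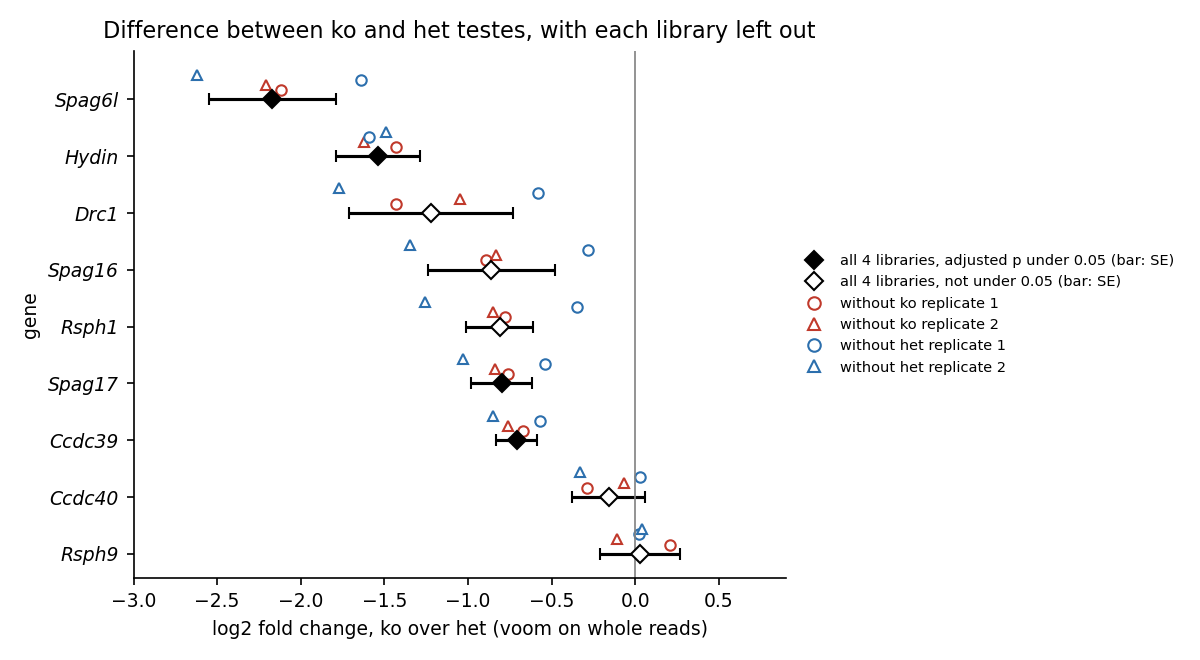
Log2 fold change, ko over het, from voom on whole reads for the 9 genes with a mean of at least 10 reads (diamonds, filled where the Benjamini-Hochberg adjusted p is under 0.05; bars are SE, n = 2 each), with open symbols for the same fit without each library. Without het replicate 1 the values of Drc1, Spag16 and Rsph1 move toward 0, to -0.58, -0.28 and -0.35, while Hydin stays at -1.59.

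The spread within het carried through most of the set. Het replicate 1 was the highest of the 4 libraries for 7 of the 9 genes with a mean of at least 10 reads, against 26.0% of all such genes. It stood at 1.5 or more times het replicate 2 for Rsph1, Spag6l, Spag16 and Drc1, a ratio reached by 7.36% of all genes. The ko libraries differed less, with ratios of replicate 1 to replicate 2 between 0.804 and 1.33 for all genes but Rsph4a. For 6 of these 9 genes ko replicate 1 was the lower of the ko libraries, with ratios of 0.938 to 0.953 for Rsph1, Spag6l, Spag17 and Ccdc39. The share of all genes with this order was not computed. The part of the late spermatid transcripts of ko replicate 1 in these values was not tested.

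Several of the 9 listed markers of pachytene spermatocytes had a similar course over the libraries, and others did not. Summed over all 9, the markers stood at 313 and 362 FPKM in ko and at 606 and 373 FPKM in het. Ldhc, a germ cell lactate dehydrogenase, stood at 11.7 and 10.6 FPKM in ko and at 78.0 and 30.7 FPKM in het. Piwil1, a PIWI protein of pachytene spermatocytes, stood at 3.65 and 5.01 FPKM in ko and at 28.1 and 14.3 FPKM in het. Ldhc and Piwil1 had the largest fold decreases of the 9. Tex101, the most abundant of the 9, overlapped between the groups at 161 and 184 FPKM in ko and 181.5 and 142 FPKM in het. Pou5f2 and Pgk2 overlapped as well. Of the 8 markers with a mean of at least 10 reads, 5 were lower and 0 higher in both ko libraries, against 19.3% and 22.1% of all such genes. Ccna1, under that mean, was higher in both. None of the 9 was listed at 0 in all 4 libraries. Voom called Ldhc, Piwil1 and Clgn lower, or 3 of 8, against 0.721% of all genes. Among the leptotene to zygotene markers 3 of 8 were lower and 0 higher in both ko libraries, against 19.3% and 22.1% of all genes with at least 10 reads. Their sums were 544 and 552 FPKM in ko and 717 and 572 FPKM in het. The part of germ cell composition in the differences of the axonemal genes was not tested.

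**Figure D3:**
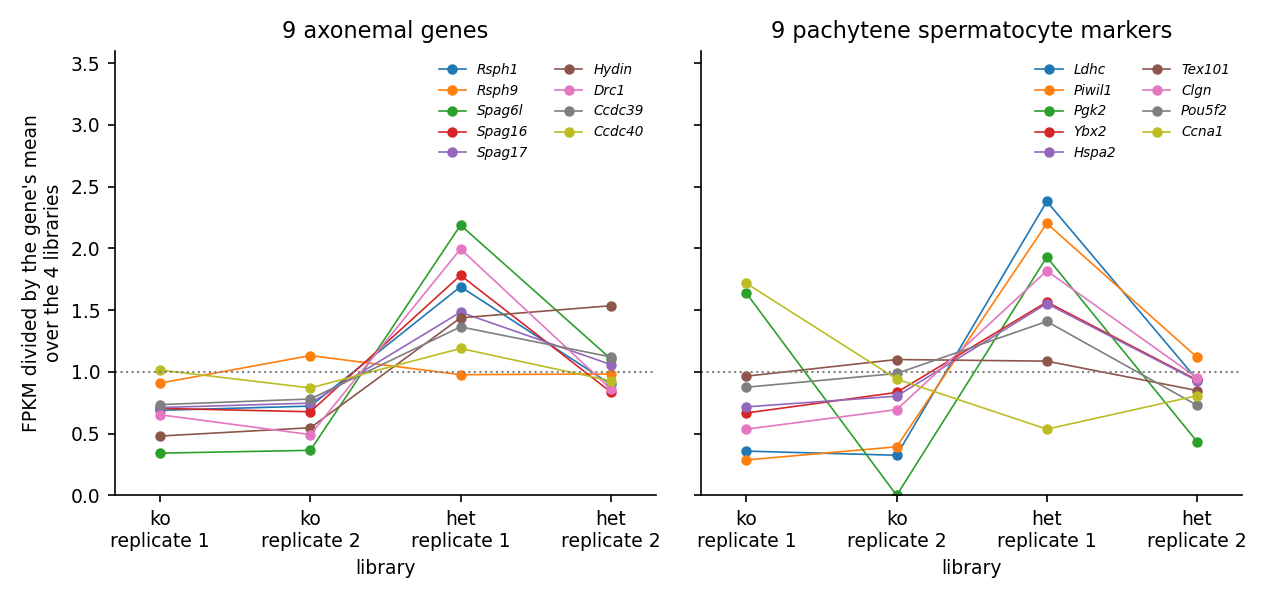
FPKM of each gene divided by its mean over the 4 libraries, for the axonemal genes other than Rsph4a (left) and the 9 listed pachytene markers (right), with ko libraries before het libraries. Het replicate 1 is the highest library for most genes in both panels, and Hydin is the highest in het replicate 2. Pgk2 and Ccna1 on the right have means under 1 FPKM.

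Motile cilia also occur in efferent ducts, which can be dissected with the testis. Markers of that epithelium, of rete and of multiciliated cells summed to 25.5 and 26.7 FPKM in ko and to 21.8 and 21.6 FPKM in het, of which Epcam, also expressed in spermatogonia, made up 15.97 to 20.04 FPKM. Mcidas and Gmnc, the regulators that define multiciliated cells, were at or under 0.115 FPKM and Pax8 at or under 0.526 FPKM in every library. Of the 7 of these 10 markers with a mean of at least 10 reads, 0 were lower and 3 higher in both ko libraries, against 19.3% and 22.1% of all such genes. Mcidas, under that mean, was lower in both. In both ko libraries 5 of 7 Sertoli and 4 of 7 spermatogonial markers were higher, against 22.1% of all genes with at least 10 reads. None of either list was lower, against 19.3%. The 7 listed macrophage and class II markers were higher in both ko libraries without exception, against that same 22.1%. Their sums were 133.5 and 106.3 FPKM in ko and 38.0 and 37.5 FPKM in het. Limma called 3 of the 6 it tested higher (Cd74, H2-Aa and C1qb) and voom 4 of 7, with Ptprc added. Of all genes limma called 0.207% and voom 0.807% higher. Cd74, the invariant chain of class II molecules, stood at 50.6 and 37.4 FPKM in ko and at 4.15 and 3.87 FPKM in het. The part of these cells in the differences of the axonemal genes was not tested.

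Other genes of the same structures, and genes of dynein docking and assembly, had median differences of the same direction. Over other radial spoke genes the median difference was -0.25 in log2(FPKM + 1) (14 genes), over other central apparatus genes -0.37 (15 genes), over other nexin link genes -0.18 (10 genes) and over dynein docking and assembly genes -0.38 (14 genes). Among those with a mean of at least 10 reads, both ko libraries were below both het libraries for 8 of 12, 9 of 13, 6 of 8 and 7 of 12 in that order, against 19.3% of all such genes, and above for 0, 1, 0 and 0, against 22.1%. Limma called 0 of the 35 genes of these lists that it tested. Of these, Lrrc23, Cfap46, Cfap70 and Ttc25 reached the mean required for limma through their het libraries alone. Voom called 3 of 12 spoke genes (Ropn1l, Lrrc23 and Iqub), 5 of 13 central apparatus genes (Cfap69, Cfap46, Cfap54, Cfap74 and Cfap70), 1 of 8 nexin link genes (Iqcd) and 2 of 12 docking and assembly genes (Ttc25 and Zmynd10) lower, against 0.721% of all genes, and 0 higher.

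Among these, the spoke protein Ropn1l stood at 11.6 and 9.11 FPKM in ko and at 33.8 and 18.2 FPKM in het. Cfap206, known in Tetrahymena to anchor a radial spoke, stood at 1.16 and 1.02 FPKM in ko and at 7.98 and 2.65 FPKM in het, and Lrrc23, a spoke head protein, at 0.416 and 0.594 FPKM in ko and 4.14 and 1.71 FPKM in het. These 3 had the smallest unadjusted limma p of the spoke list, so their separation of the groups follows in part from the choice. Het replicate 1 was the highest library in all 3. The genes named below from the central apparatus, nexin link and docking and assembly lists were chosen in the same way. Of the central pair projection proteins, Cfap69 stood at 1.89 and 2.47 FPKM in ko and 4.44 and 3.29 FPKM in het, Cfap46 at 0.430 and 0.640 FPKM in ko and 2.41 and 1.48 FPKM in het, and Cfap74 at 1.01 and 1.37 FPKM in ko and 4.16 and 2.11 FPKM in het.

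In the nexin link, Iqcd stood at 1.10 and 1.59 FPKM in ko and 4.47 and 3.23 FPKM in het, and Ccdc65, the partner of Drc1, at 0.956 and 1.24 FPKM in ko and 3.40 and 1.78 FPKM in het. Iqcg differed little, at 10.3 and 11.0 FPKM in ko and 12.8 and 11.7 FPKM in het. Zmynd10, a dynein assembly factor, stood at 1.91 and 2.71 FPKM in ko and 13.7 and 7.27 FPKM in het (voom log2 fold change -2.19, Benjamini-Hochberg adjusted p = 0.00308). The docking protein Ttc25 stood at 0.670 and 0.603 FPKM in ko and 1.40 and 1.35 FPKM in het, and the assembly factor Dnaaf4 at 3.13 and 3.68 FPKM in ko and 7.26 and 4.499 FPKM in het.

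**Figure D4:**
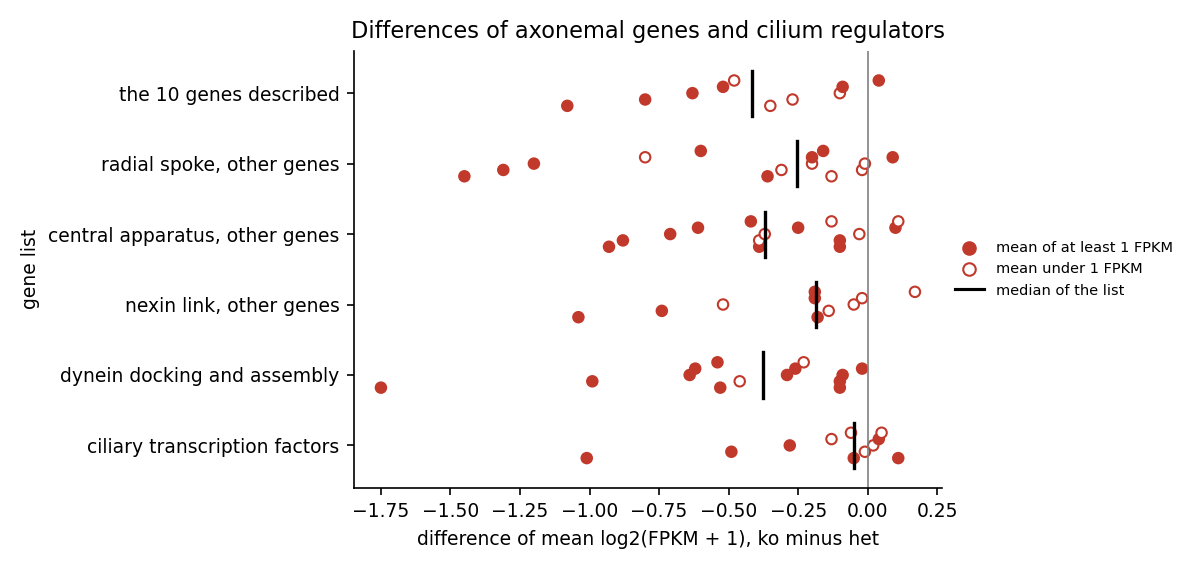
Difference of mean log2(FPKM + 1), ko minus het, for each gene of the set and of the other lists. These are the 4 other axonemal lists and a list of ciliary transcription factors with some other regulators. Filled symbols mark a mean of at least 1 FPKM, open symbols a lower mean, and black bars the median of the list. The medians are -0.41, -0.25, -0.37, -0.18, -0.38 and -0.05 from top to bottom.

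Regulators of the ciliary programme were in part lower in ko, with a median difference near 0 over a list that includes barely detected genes. Most of the list are transcription factors, but it also holds other regulators such as Ccno. The median difference was -0.05 in log2(FPKM + 1) over 11 genes, and -0.16 over the 6 that limma tested, of which it called 0. Of the 6, Rfx4 reached the mean required for limma through its het libraries alone. Of the 8 with a mean of at least 10 reads, 4 were lower and 0 higher in both ko libraries. The shares of all such genes were 19.3% and 22.1%. Voom called 1 of these 8, Rfx4, lower, against 0.721% of all genes. Rfx4 stood at 0.349 and 0.305 FPKM in ko and at 2.08 and 1.32 FPKM in het (voom log2 fold change -2.34, Benjamini-Hochberg adjusted p = 0.00463). Rfx2, which activates flagellar genes in mouse spermatogenesis, stood at 2.94 and 4.64 FPKM in ko and at 6.77 and 4.67 FPKM in het. Mybl1, the MYB factor of pachytene spermatocytes, stood at 13.0 and 13.7 FPKM in ko and at 19.1 and 14.1 FPKM in het. Rfx4, Rfx2 and Mybl1 were chosen for the smallest unadjusted limma p of the list. Foxj1, the main activator of motile cilia genes, overlapped between the groups at 0.922 and 0.733 FPKM in ko and 1.07 and 0.627 FPKM in het.

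RFX factors bind the X-box of many cilia genes, so the promoters were searched for its core letters. Windows of 250 bases before to 50 after the start site were found in RefSeq (GRCm38.p6) for 8 of the 10 genes and not for Rsph1 and Rsph4a. The windows of the 4 genes called lower by voom are shown with that of Ccdc40, which was not called, each 5′ to 3′ on the gene's strand, with matches to the RFX core GTTNCC on either strand in capitals. They lie at chr16:16829314-16829613 (minus strand, Spag6l), chr8:110266727-110267026 (plus strand, Hydin), chr3:99885167-99885466 (plus strand, Spag17), chr3:33844261-33844560 (minus strand, Ccdc39) and chr11:119228322-119228621 (plus strand, Ccdc40).
Spag6l: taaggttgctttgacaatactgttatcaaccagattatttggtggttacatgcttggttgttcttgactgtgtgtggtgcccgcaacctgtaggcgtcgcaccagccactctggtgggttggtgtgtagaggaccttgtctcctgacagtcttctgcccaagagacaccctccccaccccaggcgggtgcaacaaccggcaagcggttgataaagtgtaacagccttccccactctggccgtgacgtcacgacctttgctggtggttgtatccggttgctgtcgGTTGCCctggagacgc
Hydin: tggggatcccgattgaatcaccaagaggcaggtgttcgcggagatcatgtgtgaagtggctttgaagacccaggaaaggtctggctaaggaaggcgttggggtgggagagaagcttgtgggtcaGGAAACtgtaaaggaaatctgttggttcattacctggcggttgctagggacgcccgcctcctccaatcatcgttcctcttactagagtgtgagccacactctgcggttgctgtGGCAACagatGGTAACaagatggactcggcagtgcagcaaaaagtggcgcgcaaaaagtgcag
Spag17: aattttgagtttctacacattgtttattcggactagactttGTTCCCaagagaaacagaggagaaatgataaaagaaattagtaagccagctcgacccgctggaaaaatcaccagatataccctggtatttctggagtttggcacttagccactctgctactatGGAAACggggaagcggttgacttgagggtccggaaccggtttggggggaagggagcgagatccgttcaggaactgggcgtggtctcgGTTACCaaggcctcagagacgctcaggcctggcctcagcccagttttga
Ccdc39: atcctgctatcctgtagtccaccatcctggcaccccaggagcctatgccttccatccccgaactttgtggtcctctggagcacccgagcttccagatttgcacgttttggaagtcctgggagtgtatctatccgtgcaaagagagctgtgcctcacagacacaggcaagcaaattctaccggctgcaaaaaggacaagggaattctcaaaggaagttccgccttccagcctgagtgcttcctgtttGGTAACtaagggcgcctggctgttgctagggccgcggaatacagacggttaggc
Ccdc40: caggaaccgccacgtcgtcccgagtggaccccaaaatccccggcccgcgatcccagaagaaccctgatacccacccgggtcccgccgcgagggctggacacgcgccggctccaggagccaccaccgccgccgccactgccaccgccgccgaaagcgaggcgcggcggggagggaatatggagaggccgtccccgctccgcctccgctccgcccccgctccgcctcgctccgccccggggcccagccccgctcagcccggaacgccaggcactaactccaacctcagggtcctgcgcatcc

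The RFX core GTTNCC occurred in 7 of the 8 windows, the exception being Ccdc40, and in 45.3% of all 32851 promoter windows of this length. At least 2 matches occurred in the windows of Spag16, Spag17 and Hydin, against 13.0% of all windows. Matches began within 13 bases of the start site on either side for Hydin, Ccdc39, Spag17 and Drc1, and at 34 bases after it for Spag6l. The limit of 13 bases was set by these matches, and the share of all windows with a match that near was not computed. Among the genes that voom did not call and whose windows are not shown, Spag16 held 3 matches, and Drc1 and Rsph9 held 1 each. The match of Rsph9, whose level did not separate the groups, lay at 38 bases before its start. The longer RFX paired site, in which the core is followed on the other strand by a second core, occurred in 0 of the 8 windows and in 0.451% of all windows. The MYB site CAACTG occurred in the window of Spag16 alone, and in 13.7% of all windows. These matches describe the letters of the windows and not binding.

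**Figure D5:**
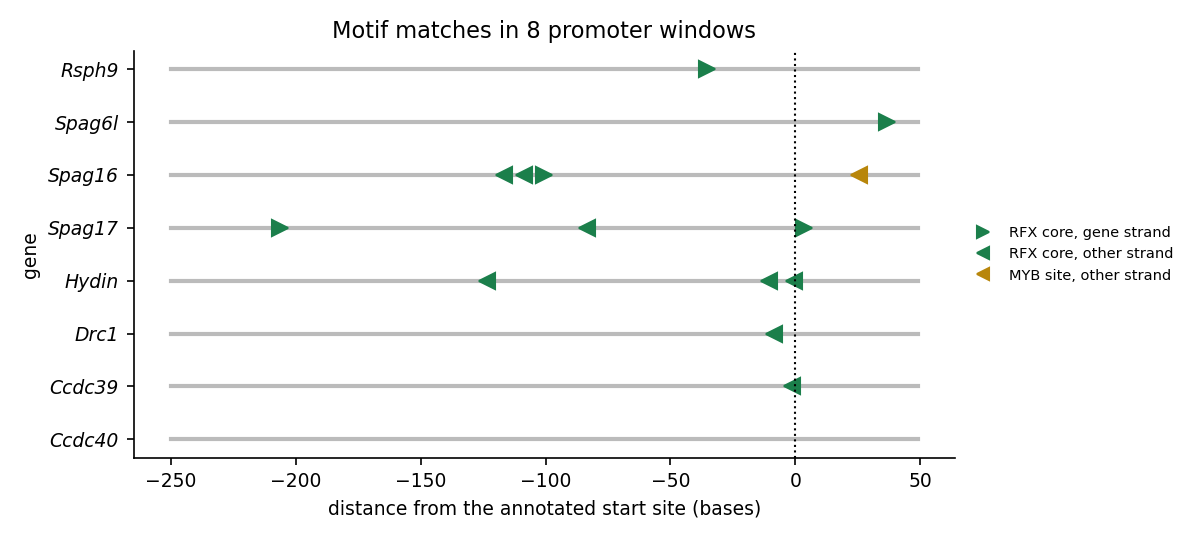
Positions of RFX core matches (green) and of the MYB site match (gold) in the 8 promoter windows, as distance in bases from the annotated start site (dotted line), with arrowheads for the strand. Spag16, Spag17 and Hydin hold 3 core matches each and Ccdc40 holds 0.

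Among other tested genes with conventional symbols, those whose values over the 4 libraries were most like the average of the set were Atr, Cdkl2, Dync2li1, Cds1 and Adad1. Likeness was measured as the distance between log2(FPKM + 1) values after subtraction of each gene's own mean, over 4 libraries and 13334 candidate genes. Candidates averaged 1 FPKM or more. The members, symbols of model or clone type (Gm, Rik and the like) and repeated symbols were left out. The average of the set was -0.22 and -0.21 in ko and 0.38 and 0.05 in het, a profile with a length of 0.487, and the 5 genes lay at distances of 0.0146 to 0.0348 from it. Atr, a DNA damage kinase active in meiotic prophase, stood at 15.2 and 15.5 FPKM in ko and 23.4 and 18.6 FPKM in het. Dync2li1, a subunit of the intraflagellar transport dynein, stood at 8.89 and 8.77 FPKM in ko and 13.9 and 10.8 FPKM in het. With 4 libraries many genes share such a course, and limma called none of the 5 (Benjamini-Hochberg adjusted p of 0.474 to 0.521).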

How the data were processed

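RNA of testes from 2 ko and 2 het mice was measured in 4 libraries. The authors deposited FPKM per gene symbol, per the file headers, in 1 table per library with 55401 rows. CASAVA 1.9, STAR 2.6.1a, featureCounts, edgeR and GRCm38 are named in the submitters' processing notes, with no role or order, and the sources used here give neither the annotation nor the strand setting. Symbols were matched to GENCODE M21 (GRCm38), which placed 96.0% of rows. FPKM times exon length moved in whole steps, with 99.1% or more of values of up to 20 reads whole within 0.02, which gave the reads.

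Genes averaging 1 FPKM or more were fitted as log2(FPKM + 1) by genotype in limma 3.58.1 (R 4.3.3) with an intensity trend, with Benjamini-Hochberg adjustment of p-values over all 17905 genes. Voom on whole reads was an alternative, and its version for genes with a mean of at least 10 reads (19823 genes) was added after the data were seen. Counting error alone would give a chi-square per gene near 1 between replicates, and it was 19.7 in ko and 6.29 in het. An exact permutation test of 2 against 2 cannot give a two-sided p below 0.333, so none is reported. All 10 members are named, with up to 3 genes by smallest p from each of 5 other lists and the 5 genes of nearest pattern. Members and lists were chosen with earlier results of these data known.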

Additional observations from a re-analysis of the deposited data

How the results depend on the processing

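Limma on log2(FPKM + 1) called 0 of the 10 genes with no filter, and 0 of the 6 it could test with a pseudocount of 0.1 FPKM, median-of-ratios scaling, quantile normalization, protein-coding genes only or any library left out. Voom called 2 of these 6 lower with the FPKM filter, and with a mean of at least 10 reads it called 4 of 9, or 3 without het replicate 1, 7 without het replicate 2, 2 without ko replicate 1 and 5 without ko replicate 2. Over all genes limma called 2 lower and 37 higher, 0 and 0 with no filter or with any library left out, and 14 and 94 with protein-coding genes only. Voom called 108 lower and 135 higher with the FPKM filter and 143 and 160 with the read filter, and without het replicate 1, het replicate 2, ko replicate 1 and ko replicate 2 in turn 98, 609, 63 and 224 lower and 120, 208, 131 and 302 higher. A fit with 1 library in a group assumes that it varies like the other group. With the replicate block limma called 0 of the 6 genes, 0 genes lower and 15 higher in all. The labels do not say what the replicate numbers mean. Deviations of same-numbered libraries correlated at -0.03 across genes. With 1 difference in each group, this value cannot show whether same-numbered libraries were paired.

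The median difference of the 10 genes was -0.41, and -0.72 with a pseudocount of 0.1 FPKM, by the scale's construction. It was -0.27 to -0.58 when a library was left out, the smallest without het replicate 1, and was not computed with voom or for protein-coding genes alone. The values near 0 changed sign in single settings. Rsph9 ran from -0.08 (without ko replicate 2, and -0.11 in voom) to 0.17 in limma, and Ccdc40 from -0.20 to 0.01 (without het replicate 1, and 0.03 in voom). Rsph4a, with 23 reads in all, allows no statement on a difference.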
